A study of Arabidopsis thaliana with 35 samples.

Results

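The 10 genes described here, *HY5*, *HYH*, *COP1*, *SPA1*, *SPA3*, *SPA4*, *RUP1*, *RUP2*, *ELIP1* and *ELIP2*, belong to the light signalling and light stress branch of the *Arabidopsis* seedling, and were taken by their locus identifiers from the 37898 genes in each of the 2 deposited tables. HY5 is a bZIP transcription factor of light signalling, and HYH is its close homolog. In darkness a ubiquitin ligase built from COP1 and SPA proteins marks HY5 for degradation, and light inactivates this ligase. Under UV-B the photoreceptor UVR8 binds COP1 and raises *HY5*, and RUP1 and RUP2, whose genes are HY5 targets, return UVR8 to its inactive form. The ELIPs are thylakoid proteins of the light-harvesting family that accumulate in strong light.

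Whole seedlings were grown for 12 days at 22 °C under days of 12 h light, each followed by 12 h darkness, on medium with sucrose, and were then kept for 1 h at 37 °C (heat), 10 °C (moderate cold) or 22 °C. Exposure began at lights on or later in the light period, and tissue was taken at ZT1 or ZT6 (hours after lights on). Col-0 (WT) and the double mutant *cca1-1*/*lhy-20* (*cca1lhy*), mutated in the morning clock factors CCA1 and LHY, were sampled at ZT1 with 4 libraries per temperature (WT at 10 °C 3). WT and *prr7-3*/*prr9-1* (*prr7prr9*), mutated in the pseudo-response regulators PRR7 and PRR9, were sampled at ZT6 with 2 libraries per temperature. Each double mutant is represented by 1 combination of alleles, and the ecotype background given for the samples is Col-0.

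Values are log2 CPM, the base 2 logarithm of scaled counts per library size, and every log2 fold change (LFC) compares libraries within 1 table, because the tables were normalized separately. Each time of day had its own flowcell, so the 2 cannot be told apart in comparisons of the responses, nor can a clock mutation and other differences between the lines. Recovered read totals were 1.09 M to 10.54 M per library at ZT1 and 12.6 M to 28.59 M at ZT6, and 4 of the 12 ZT6 libraries stood apart with over 27000 genes above the lowest value. The totals differed with temperature. At ZT1 they were 1.18 M to 1.81 M at 37 °C, 1.09 M to 3.78 M at 22 °C and 1.65 M to 10.54 M at 10 °C. At ZT6 they were 12.6 M to 13.61 M, 16.44 M to 28.59 M and 16.63 M to 19.91 M in that order. Depth is thus partly tied to temperature, and its part in the results was not tested. The lowest possible value is 1.23 at ZT1 and −1.68 at ZT6. A gene was called when its absolute LFC exceeded 1 and limma's adjusted p was below 0.05, except that interactions and differences between times needed only the adjusted p, and LFCs are given ± standard error. *CCA1*, *LHY* and *PRR7* had no mutant value above a WT value at any temperature, whereas *PRR9* overlapped between genotypes at 22 °C. The summed CPM of 4 leaf markers and that of 4 root markers were lower at 37 °C. In WT at ZT1 the leaf sum was 20100 to 29400 at 37 °C and 51700 to 53300 at 22 °C, and the root sum 371 to 570 and 1660 to 3410. In WT at ZT6 the leaf sum was 17400 to 18600 and 30600 to 42500, and the root sum 477 to 566 and 2420 to 2550. No marker was at the lowest value in every library, and the part of these shifts in the heat results below was not tested. Fewer cells of a type and less RNA per cell cannot be told apart in such seedlings.

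In WT seedlings heat and cold moved these genes differently at the 2 times of day. At ZT1 heat lowered *HYH*, *COP1*, *RUP1* and *RUP2* and raised *ELIP1*, so that 5 of the 10 genes were called, against 13.3% of the 25727 genes tested (6.97% higher and 6.3% lower). At ZT6 heat raised *HY5*, *HYH*, *SPA3* and *ELIP1*, and 4 of the 10 were called, against 14.4% of 31135 (7.25% higher and 7.16% lower). Cold raised *HY5*, *RUP1* and *ELIP2* at ZT1 (3 of 10, against 1.87%, of which 1.03% higher). At ZT6 it raised 8 of the 10, all but *HY5* and *RUP1*, against 5.94%, of which 3.94% higher. The median LFC of the 10 genes at ZT1 was −0.62 for heat and 0.44 for cold. At ZT6 it was 0.86 and 1.89, beside medians of −0.06, 0.01, 0.00 and 0.00 over all genes tested. The deposited values were quantile normalized, which gives all libraries of a time the same distribution. The small medians over all genes largely follow from that step. With libraries centred on 6 reference genes the median of all genes under cold at ZT6 was 0.28, and 7.12% of genes were called higher. The directions of all called members stayed the same under that scaling.

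**Figure D1:**
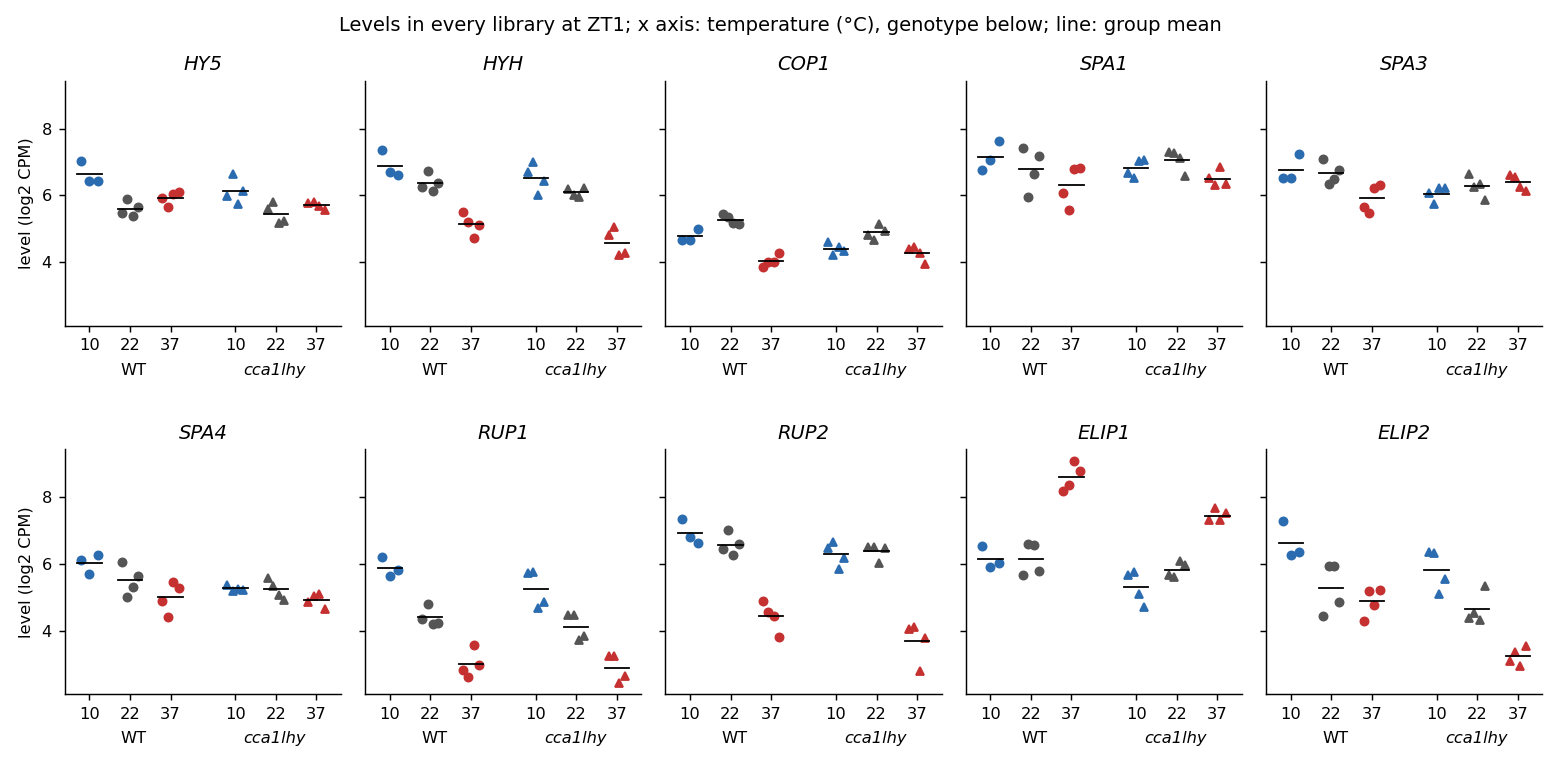
Level of each gene in the 23 libraries at ZT1 (y axis, log2 CPM; x axis, temperature in °C within genotype). Circles are WT libraries, triangles are *cca1lhy* libraries and lines are group means. In WT *ELIP1* at 37 °C lies between 8.19 and 9.09, above all its other values, while *RUP2* at 37 °C lies between 3.81 and 4.89, below all WT values at 22 °C and 10 °C.

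**Figure D2:**
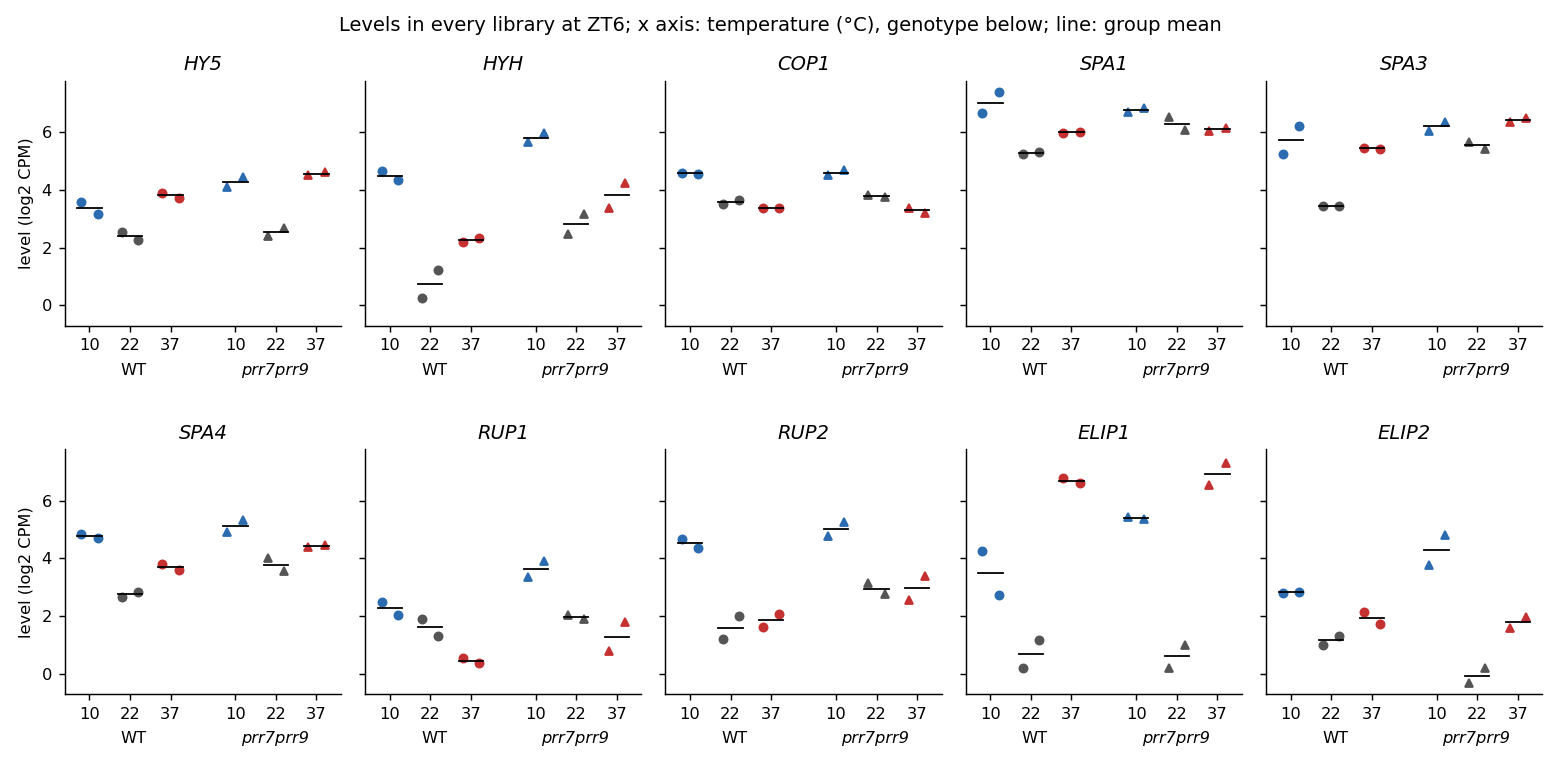
Level of each gene in the 12 libraries at ZT6 (y axis, log2 CPM; x axis, temperature in °C within genotype). Circles are WT libraries, triangles are *prr7prr9* libraries and lines are means of 2 libraries. *HYH* and *RUP2* are highest at 10 °C in both genotypes and *ELIP1* is highest at 37 °C in both.

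The transcription factor gene *HY5* (AT5G11260; TAIR10.1 chromosome 5, 3593335 to 3595073) rose in cold at ZT1 and in heat at ZT6. Its WT values at ZT1 were 5.47, 5.90, 5.37 and 5.64 at 22 °C, 7.02, 6.42 and 6.44 at 10 °C, and 5.91, 5.64, 6.03 and 6.10 at 37 °C. All cold libraries lay above all those at 22 °C (LFC 1.03 ± 0.20, limma adjusted p = 0.002), while the heat libraries overlapped them (LFC 0.32 ± 0.19, adjusted p = 0.19). The cold LFC lies at the threshold of 1, and the call ended without WT replicate 1 or 3 at 22 °C (LFC 0.99 and 0.96) or WT replicate 2 at 10 °C (LFC 0.84). At ZT6 *HY5* was 2.56 and 2.27 at 22 °C, 3.60 and 3.17 at 10 °C, and 3.89 and 3.74 at 37 °C, with no overlap between temperatures. Heat raised it (LFC 1.40 ± 0.21, adjusted p = 0.0016), and its cold LFC of 0.98 ± 0.21 (adjusted p = 0.021) fell just short of 1. After that centring the cold LFC was 1.26, past the threshold.

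*HYH* (AT3G17609; chromosome 3, 6023844 to 6024710) moved in opposite directions under heat at the 2 times. At ZT1 it was 6.26, 6.74, 6.13 and 6.36 in WT at 22 °C and 5.49, 5.20, 4.74 and 5.11 at 37 °C. Every heat library was below every control (LFC −1.24 ± 0.22, adjusted p = 8.6e-05). At ZT6 the 2 WT libraries at 22 °C were 0.25 and 1.24, with 14 and 44 reads, those at 37 °C 2.2 and 2.34, and those at 10 °C 4.66 and 4.35. Heat raised it by an LFC of 1.53 ± 0.39 (adjusted p = 0.022) and cold by 3.76 ± 0.39 (adjusted p = 0.0007), the latter a 13.6-fold difference. The heat call was lost without WT replicate 2 at 22 °C (LFC 1.03, adjusted p = 0.13), WT replicate 2 at 37 °C (1.60, adjusted p = 0.065) or WT replicate 3 at 37 °C (1.45, adjusted p = 0.10). At ZT1 *HYH* in cold was 7.37, 6.70 and 6.61, overlapping 22 °C (LFC 0.52 ± 0.24, adjusted p = 0.31).

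*COP1* (AT2G32950; chromosome 2, 13977881 to 13983609), which encodes the RING-finger subunit, was 5.45, 5.34, 5.18 and 5.13 in WT at 22 °C and ZT1, and 3.86, 4.01, 4.01 and 4.28 at 37 °C, where it rested on 14 to 19 reads per library. The groups did not overlap, and the LFC was −1.24 ± 0.15 (adjusted p = 5.2e-07). In cold it was 4.66, 4.66 and 5.00, below every control library, yet not past the test (LFC −0.51 ± 0.16, adjusted p = 0.086). At ZT6 *COP1* was 3.50 and 3.65 at 22 °C, 3.36 and 3.39 at 37 °C, and 4.60 and 4.57 at 10 °C. The cold rise (LFC 1.01 ± 0.14, adjusted p = 0.0031) lies at the threshold and ended without WT replicate 2 at 22 °C (LFC 0.93) or WT replicate 1 at 10 °C (LFC 0.99), whereas for heat the LFC was −0.20 ± 0.14 (adjusted p = 0.36).

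The *SPA* genes encode the partners that COP1 needs for its activity. *SPA1* (AT2G46340; chromosome 2, 19022154 to 19027528) spread widely in WT at ZT1, with 7.42, 5.94, 6.65 and 7.18 at 22 °C, 6.07, 5.55, 6.80 and 6.82 at 37 °C and 6.76, 7.07 and 7.63 at 10 °C, and no temperature passed the test. *SPA3* (AT3G15354; chromosome 3, 5169095 to 5173105) was 7.10, 6.33, 6.48 and 6.77 at 22 °C and 5.65, 5.48, 6.22 and 6.32 at 37 °C, a shift with an adjusted p of 0.0086 whose LFC of −0.75 ± 0.21 is under the threshold. *SPA4* (AT1G53090; chromosome 1, 19783185 to 19786902) overlapped between 22 °C and both other temperatures at ZT1.

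At ZT6 the *SPA* values were higher in cold and in heat than at 22 °C in every WT library. *SPA1* was 5.24 and 5.32 at 22 °C, 6.67 and 7.40 at 10 °C and 5.99 and 6.01 at 37 °C. *SPA3* was 3.43 in both control libraries, 5.25 and 6.22 at 10 °C and 5.47 and 5.42 at 37 °C. *SPA4* was 2.66 and 2.85, then 4.86 and 4.70, then 3.80 and 3.60 in the same order. Cold raised all of them, with LFCs of 1.75 ± 0.23 (*SPA1*, adjusted p = 0.0024), 2.31 ± 0.27 (*SPA3*, adjusted p = 0.0011) and 2.03 ± 0.20 (*SPA4*, adjusted p = 0.00056). Heat raised *SPA3* (LFC 2.02 ± 0.27, adjusted p = 0.00076), while *SPA1* had 0.72 ± 0.23 (adjusted p = 0.056) and *SPA4* 0.94 ± 0.20 (adjusted p = 0.0091). *SPA3* overlaps a gene on the other strand, AT3G15350, by 135 bases, and no source used here gives the strand setting of the counting, so reads of this stretch cannot be assigned. AT3G15350 itself had an LFC of 1.02 ± 0.16 (adjusted p = 0.0054) in cold and 0.30 ± 0.16 (adjusted p = 0.23) in heat at ZT6.

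*RUP1* and *RUP2*, which encode WD40 proteins that switch UVR8 off, both fell in heat at ZT1. *RUP1* (AT5G52250; chromosome 5, 21216772 to 21218351) was 4.36, 4.80, 4.21 and 4.24 in WT at 22 °C and 2.81, 2.62, 3.57 and 2.98 at 37 °C, where only 4 to 9 reads per library support it (LFC −1.40 ± 0.27, adjusted p = 0.00026). In cold it was 6.20, 5.64 and 5.80, above every control (LFC 1.48 ± 0.29, adjusted p = 0.0025). At ZT6 its values were 1.89 and 1.32 at 22 °C, 2.48 and 2.05 at 10 °C and 0.54 and 0.35 at 37 °C. The order of the temperatures was thus that of ZT1, but neither the heat LFC (−1.16 ± 0.39, adjusted p = 0.061) nor the cold LFC (0.66 ± 0.39, adjusted p = 0.36) passed the test.

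For *RUP2* (AT5G23730; chromosome 5, 8005097 to 8006630) the fall in heat at ZT1 was from 6.43, 7.02, 6.25 and 6.59 to 4.89, 4.57, 4.45 and 3.81, with 12 to 36 reads per library at 37 °C (LFC −2.14 ± 0.26, adjusted p = 6.4e-07). This was the largest fall among the 10 genes in WT. In cold it was 7.35, 6.81 and 6.63 and overlapped the control (LFC 0.36 ± 0.28, adjusted p = 0.70). At ZT6 it was 1.19 and 2.00 at 22 °C, 1.62 and 2.07 at 37 °C, and 4.68 and 4.37 at 10 °C. Heat and control overlapped there, and cold raised it by an LFC of 2.93 ± 0.36 (adjusted p = 0.0016).

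With genes ranked by the lower of their r values at the 2 times, *HYH* and *RUP2* were each other's nearest among all genes tested at both. Pearson's r between their log2 CPM was 0.96 over the 23 libraries at ZT1 and 0.94 over the 12 at ZT6, as a description over libraries that share temperature and depth. For *HYH* the other gene with r over 0.9 at both times was the beta-amylase gene *CT-BMY*. *RUP2* was also near the cryptochrome gene *CRY3* and the vitamin B6 synthesis gene *PDX1.1*, *COP1* near the kinesin gene *KAC1*, and *RUP1* near the microRNA gene *MIR163*. The 250 bases before the gene starts of *HYH* (chr3:6023594-6023843, plus strand) and *RUP2* (chr5:8004847-8005096, plus strand) are shown because the pair moved together. They are from the RefSeq genome TAIR10.1, 5′ to 3′, with motif matches in capitals, of which neither has any.
HYH: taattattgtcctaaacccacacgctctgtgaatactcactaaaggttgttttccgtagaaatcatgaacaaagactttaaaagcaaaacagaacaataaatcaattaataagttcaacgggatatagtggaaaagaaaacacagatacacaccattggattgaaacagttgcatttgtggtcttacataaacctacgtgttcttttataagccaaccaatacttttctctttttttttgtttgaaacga
RUP2: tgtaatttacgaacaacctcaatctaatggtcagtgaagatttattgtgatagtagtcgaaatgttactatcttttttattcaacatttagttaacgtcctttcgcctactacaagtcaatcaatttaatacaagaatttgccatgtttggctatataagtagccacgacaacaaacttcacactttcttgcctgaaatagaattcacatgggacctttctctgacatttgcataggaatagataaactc

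Motifs were searched on both strands of these windows in all 10 genes: the G-box CACGTG, a binding site of HY5 and of other bZIP and bHLH factors, the evening element AAAATATCT and the CCA1-binding site AAAAATCT of clock factors, the heat shock element cores GAANNTTC and TTCNNGAA, which can overlap each other and were counted together, and the cold element core CCGAC. Among the 27443 promoters of protein-coding genes of this length, 6.49% hold the G-box, 2.36% the evening element, 6.69% the CCA1-binding site, 16.1% a heat shock core and 12.0% CCGAC. Of the 10 genes *ELIP1* has 1 G-box, *COP1* 1 heat shock core and *SPA1* 1 CCA1-binding site, and the other 7 windows hold none of these letters.

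*ELIP1* and *ELIP2* encode closely related proteins that bind chlorophyll under light stress, and their transcripts parted at 37 °C. *ELIP1* (AT3G22840; chromosome 3, 8084405 to 8085669) was 5.66, 6.58, 6.56 and 5.77 in WT at 22 °C and ZT1 and 8.19, 8.36, 9.09 and 8.77 at 37 °C. *ELIP2* (AT4G14690; chromosome 4, 8418242 to 8419325) was 4.43, 5.92, 5.93 and 4.86 at 22 °C and 4.29, 5.20, 4.78 and 5.23 at 37 °C. Heat thus raised *ELIP1* without overlap (LFC 2.46 ± 0.24, adjusted p = 1.8e-08), and *ELIP2* overlapped its control (LFC −0.41 ± 0.34, 95% interval −1.11 to 0.29, adjusted p = 0.39).

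In cold at ZT1 it was *ELIP2* that rose. *ELIP1* was 6.53, 5.89 and 6.03, within its control range (LFC 0.01 ± 0.26, 95% interval −0.53 to 0.55, adjusted p = 1.0). *ELIP2* was 7.27, 6.26 and 6.35, above every control library (LFC 1.34 ± 0.36, adjusted p = 0.035). That call was lost without WT replicate 1 or 4 at 22 °C (LFC 1.06 and 1.2, adjusted p = 0.11 for both), WT replicate 2 at 10 °C (LFC 1.02, adjusted p = 0.27) or WT replicate 4 at 10 °C (LFC 1.48, adjusted p = 0.052). Without WT replicate 1 at 22 °C or replicate 2 at 10 °C, *RUP1* was the 1 member left among the 3 called in cold at ZT1.

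At ZT6 *ELIP1* rose from 0.19 and 1.15 in WT at 22 °C, which are 13 and 41 reads, to 6.78 and 6.62 at 37 °C, which are 1471 and 1283 reads. Its LFC of 6.02 ± 0.51 (adjusted p = 5.5e-05), a 65.1-fold difference, was the largest of the 10 genes in any WT comparison. In cold the pair of libraries was 4.27 and 2.72 (LFC 2.82 ± 0.51, adjusted p = 0.0097), and without WT replicate 2 at 22 °C or WT replicate 1 at 10 °C the adjusted p became 0.059 and 0.050 with LFCs of 2.34 and 2.05. *ELIP2* was 1.00 and 1.32 at 22 °C, 2.14 and 1.71 at 37 °C, and 2.81 and 2.85 at 10 °C. Cold raised it (LFC 1.67 ± 0.37, adjusted p = 0.023), a call that no set with 1 of the 4 libraries removed kept (adjusted p = 0.060 to 0.10), and for heat the LFC was 0.77 ± 0.37 (adjusted p = 0.19).

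The split between the ELIP genes is plainest within a library. *ELIP1* minus *ELIP2* in WT at ZT1 was 0.63 to 1.23 at 22 °C, 3.16 to 4.31 at 37 °C and −0.73 to −0.33 at 10 °C, and these ranges do not overlap. In *cca1lhy* it was 0.62 to 1.77, 3.97 to 4.38 and −0.83 to −0.01. The difference is not corrected for gene length, so its change between temperatures was compared and not its size. Its mean rose at 37 °C by 2.87 in WT and 3.04 in *cca1lhy*, and differed at 10 °C by −1.34 and −1.70. In a 2-sided exact permutation test, run after the values were seen, p was 0.029 for both heat comparisons and for *cca1lhy* in cold (adjusted p = 0.038 over 4 comparisons), the smallest value that 4 against 4 libraries allow, and 0.057 for WT in cold, the smallest for 3 against 4. Ranges that do not overlap fix these p-values at their smallest, so the test adds nothing to the ranges. At ZT6 the difference was −0.80 and −0.17 in WT at 22 °C, 4.64 and 4.91 at 37 °C, and 1.45 and −0.13 at 10 °C, with too few libraries for such a test. No 75-base window of either transcript occurs in the other with at most 2 mismatches, so reads of this length do not fall on both.

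**Figure D3:**
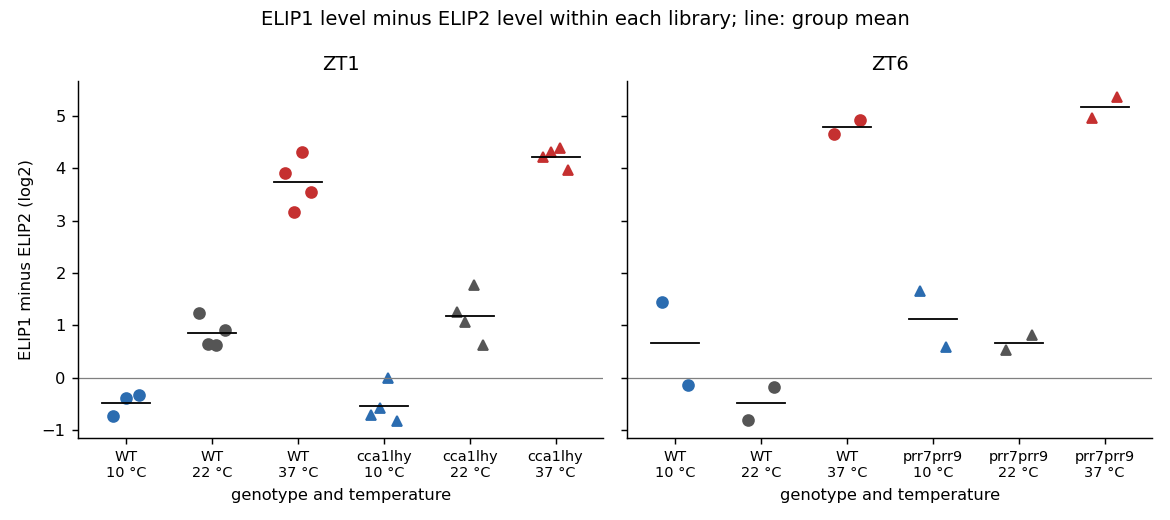
*ELIP1* minus *ELIP2* within each library (y axis, log2) by genotype and temperature at ZT1 (left) and ZT6 (right). Circles are WT, triangles are mutant libraries and lines are group means. The 37 °C libraries stand apart at both times, with 3.16 to 4.38 (ZT1) and 4.64 to 5.35 (ZT6).

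The promoter windows of both ELIP genes are shown because the genes responded differently to heat. That of *ELIP1* is chr3:8085670-8085919 on the minus strand and that of *ELIP2* chr4:8417992-8418241 on the plus strand (TAIR10.1, RefSeq). Capitals mark the G-box, which starts 66 bases before the gene start of *ELIP1*. In *ELIP2* none of the letters searched occur in this window.
ELIP1: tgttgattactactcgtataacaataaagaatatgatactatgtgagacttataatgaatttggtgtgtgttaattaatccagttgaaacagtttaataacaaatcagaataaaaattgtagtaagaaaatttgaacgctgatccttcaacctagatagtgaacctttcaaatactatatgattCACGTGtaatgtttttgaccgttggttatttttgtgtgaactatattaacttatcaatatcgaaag
ELIP2: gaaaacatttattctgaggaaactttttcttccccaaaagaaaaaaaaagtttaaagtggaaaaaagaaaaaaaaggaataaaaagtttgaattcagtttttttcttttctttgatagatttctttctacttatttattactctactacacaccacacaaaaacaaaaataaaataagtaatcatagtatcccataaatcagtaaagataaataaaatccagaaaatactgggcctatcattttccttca

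The genes nearest to *ELIP1* in pattern were AT5G04980, AT1G23330 and *MIPS2*, an inositol phosphate synthase gene, whose r was 0.93, 0.95 and 0.92 over the ZT1 libraries and 0.96, 0.93 and 0.95 over those of ZT6. For *HY5*, *SPA1*, *SPA3*, *SPA4* and *ELIP2* no gene exceeded 0.9 at both times.

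Whether the response of WT depended on the time of day was tested as the difference of the LFCs, ZT6 minus ZT1. Under heat 8 of the 10 genes were called higher at ZT6, all but *RUP1* and *ELIP2*, against 5.23% of the 25631 genes tested at both times. Under cold 7 of the 10 were called higher, all but *HY5*, *RUP1* and *ELIP2*, against 5.77%, or 9.3% after centring. None of the 10 was called lower, against 4.21% and 5.13%. The comparisons share their 22 °C libraries within a time, so the heat and cold differences are not independent of each other.

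Of the factor genes *HYH* differed most, by 2.77 ± 0.45 under heat (adjusted p = 0.0013) and 3.24 ± 0.46 under cold (adjusted p = 0.00013). For *HY5* the difference was 1.08 ± 0.28 under heat (adjusted p = 0.017) and −0.06 ± 0.29 under cold (adjusted p = 0.94). The heat value of *HY5* had an adjusted p of 0.055 to 0.076 without WT replicate 3 at 22 °C, replicate 2 at 37 °C or replicate 3 at 37 °C of ZT6. *COP1* differed by 1.03 ± 0.21 (adjusted p = 0.002) and 1.51 ± 0.22 (adjusted p = 1.2e-05), and in heat this was a fall at ZT1 with no call at ZT6. *SPA3* differed by 2.77 ± 0.34 (adjusted p = 2.3e-05) and 2.22 ± 0.35 (adjusted p = 0.00011), and *SPA4* by 1.44 ± 0.29 (adjusted p = 0.0022) and 1.51 ± 0.31 (adjusted p = 0.00098). *SPA1* had 1.21 ± 0.37 (adjusted p = 0.035) and 1.39 ± 0.39 (adjusted p = 0.015).

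The *SPA1* values were the least stable of these. The heat call ended without WT replicate 1 or 4 at 22 °C of ZT1 (adjusted p = 0.091 and 0.080), replicate 1 or 2 at 37 °C of ZT1 (0.067 and 0.11), or any of the 4 ZT6 libraries (0.058 to 0.11). The cold call ended without WT replicate 2 at 10 °C of ZT1 (0.071) or of ZT6 (0.076).

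*RUP2* differed by 2.39 ± 0.45 under heat (adjusted p = 0.0022) and 2.57 ± 0.46 under cold (adjusted p = 0.00058), and *ELIP1* by 3.56 ± 0.56 (adjusted p = 0.0016) and 2.81 ± 0.57 (adjusted p = 0.0046). For *RUP1* the differences were 0.24 ± 0.47 (adjusted p = 0.80) and −0.82 ± 0.48 (adjusted p = 0.33), and for *ELIP2* 1.18 ± 0.50 (adjusted p = 0.14) and 0.33 ± 0.52 (adjusted p = 0.78). The WT values of *HYH*, *RUP2* and *ELIP1* at 22 °C were lower in the ZT6 table (0.25 and 1.24, 1.19 and 2.00, and 0.19 and 1.15) than in the ZT1 table (6.13 to 6.74, 6.25 to 7.02, and 5.66 to 6.58), but the tables were normalized separately and this was not tested. Several of these ZT6 values lie under 1.23, the lowest that a library at ZT1 can show. With the ZT6 values raised to that level the differences of *HYH* were 2.28 and 2.75, of *RUP2* 2.37 and 2.55, and of *ELIP1* 3.01 and 2.26, and all 6 stayed past the test.

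**Figure D4:**
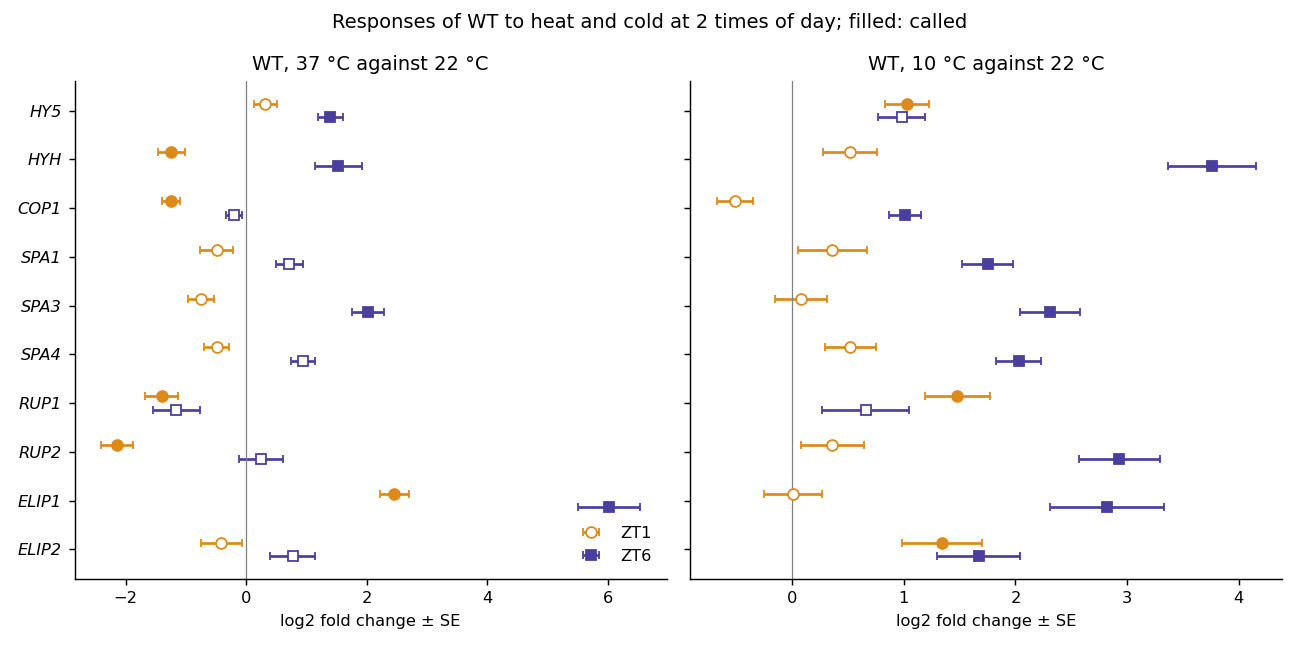
LFC of WT at 37 °C (left) and 10 °C (right) against 22 °C for the 10 genes, at ZT1 (circles, n = 4, with 3 at 10 °C) and ZT6 (squares, n = 2). Bars are standard errors and filled symbols are called. Under heat *HYH*, *SPA1*, *SPA3*, *SPA4*, *RUP2* and *ELIP2* lie left of 0 at ZT1 and right of it at ZT6, and *ELIP1* reaches 6.02 at ZT6.

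The ZT6 results rest on pairs of libraries, and their p-values measure only the spread between these samples. Without the 4 libraries with over 27000 genes, WT replicate 2 at 37 °C and 1 of *prr7prr9* at each temperature, 8 libraries in 6 groups remain, and 0 of the 10 genes were called for heat or cold in WT. The LFCs kept their direction, from 1.32 to 5.94 for the 4 genes called under heat (adjusted p = 0.052 to 0.158) and from 1.01 to 3.76 for the 8 called under cold (adjusted p = 0.108 to 0.169). All WT libraries at 22 °C and 10 °C stayed in that fit, and the cold LFCs of the 8 genes were the same in it. Leaving out WT replicate 1 at 10 °C lowered the count called in cold at ZT6 from 8 to 5. Without the 4 libraries with over 27000 genes, the called differences between the times also kept their direction. For these genes they were 1.00 to 3.48 under heat and 1.39 to 3.24 under cold, and calls of both kinds were lost.

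In *cca1lhy* at ZT1 the responses had the directions seen in WT for the called genes. Heat lowered *HYH* (LFC −1.5 ± 0.22), *RUP1* (−1.23 ± 0.27), *RUP2* (−2.68 ± 0.26) and *ELIP2* (−1.41 ± 0.34) and raised *ELIP1* (1.63 ± 0.24), so 5 of 10 genes were called, against 12.7% of all genes (6.44% higher and 6.28% lower, or 8.09% higher after centring). *COP1* was 4.83, 4.67, 5.14 and 4.93 at 22 °C and 4.39, 4.46, 4.27 and 3.96 at 37 °C, separate groups with an LFC of −0.63 ± 0.15 (adjusted p = 0.0021) that stays under the threshold. Cold raised *RUP1* (LFC 1.13 ± 0.27, adjusted p = 0.010) and *ELIP2* (1.18 ± 0.34, adjusted p = 0.037), 2 of 10 against 2.15%, of which 0.983% higher. The *RUP1* call ended without *cca1lhy* replicate 3 at 22 °C (LFC 1.0, adjusted p = 0.052) or replicate 1 or 2 at 10 °C (LFC 0.97 for both). The *ELIP2* call ended without replicate 1, 2 or 3 at 22 °C (adjusted p = 0.096, 0.085 and 0.12) or replicate 1 or 2 at 10 °C (0.15 and 0.11), and 0 of the 10 were called without replicate 3 at 22 °C or replicate 1 or 2 at 10 °C.

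Between *cca1lhy* and WT the ELIP genes stood out at 37 °C. *ELIP1* was 7.30, 7.66, 7.31 and 7.51 in the mutant against 8.19 to 9.09 in WT (LFC −1.16 ± 0.24, adjusted p = 0.0041), and *ELIP2* was 3.08, 3.36, 2.93 and 3.54 against 4.29 to 5.23 (LFC −1.65 ± 0.34, adjusted p = 0.0034). Neither gene overlapped between the genotypes, and the mutant's *ELIP2* values rest on 5 to 14 reads. At so few reads the 5 that the authors added to every count can make an LFC too small in size. Without WT replicate 3 the *ELIP1* LFC was −0.99, under the threshold. These were the 2 genes called of 10, against 2.13% of all genes (1.31% higher and 0.824% lower). At 22 °C limma called 0 of the 10, against 1.72%, with 1 at an unadjusted p under 0.05 (14.7% of all genes), and at 10 °C 0 of 10, against 1.57% (1.12% higher and 0.455% lower), with 8 at an unadjusted p under 0.05 (10.4% of all genes). These 8 LFCs, none past the adjusted test, were from −0.36 ± 0.16 for *COP1* to −0.85 ± 0.26 for *ELIP1*.

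The interaction, which asks whether the mutant responded differently from WT, was not past the test for any of the 10 genes. For heat limma called 0 of 10, against 0.913% of all genes, with 4 at an unadjusted p under 0.05 (13.1% of all genes). These were *COP1* (0.61 ± 0.21, adjusted p = 0.20), *SPA3* (0.87 ± 0.30, adjusted p = 0.20), *ELIP1* (−0.83 ± 0.34, adjusted p = 0.29) and *ELIP2* (−1.0 ± 0.48, adjusted p = 0.37). For cold it called 0 of 10, against 0.0117%, and 0 at an unadjusted p under 0.05 (4.18% of all genes). The lower *ELIP* levels of *cca1lhy* at 37 °C are therefore not shown to be particular to that temperature.

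**Figure D5:**
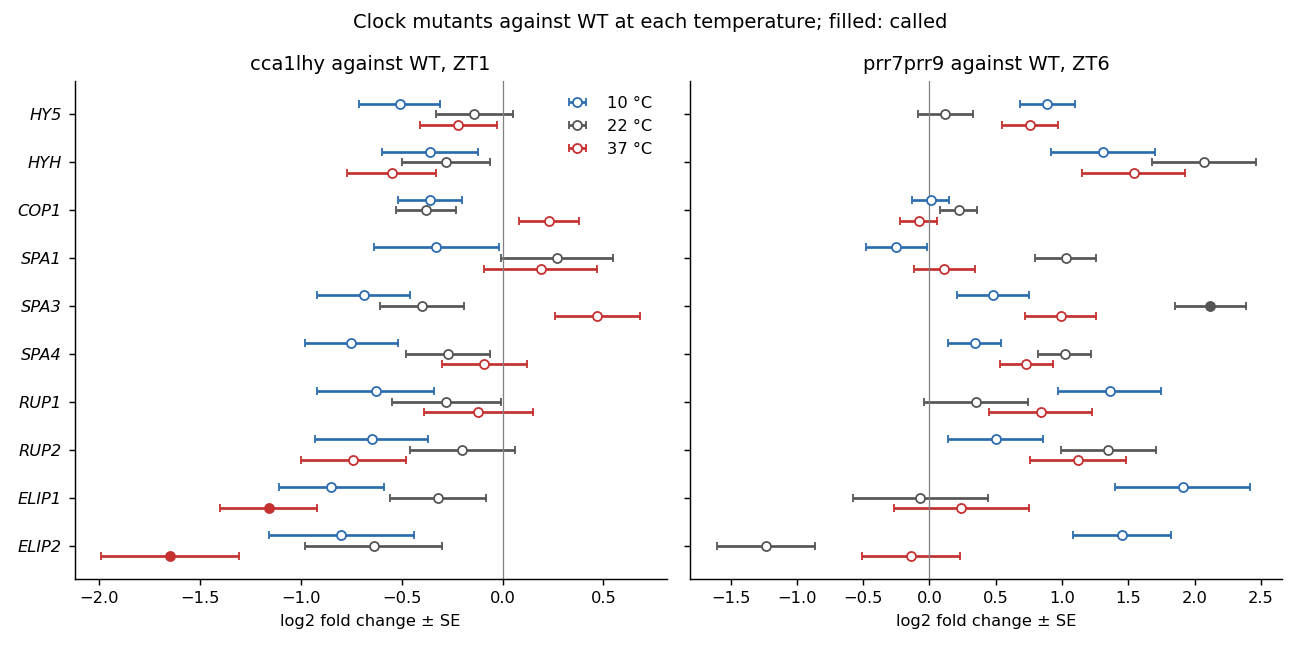
LFC of *cca1lhy* against WT at ZT1 (left, n = 4 per group, WT at 10 °C 3) and of *prr7prr9* against WT at ZT6 (right, n = 2 per group) for the 10 genes at each temperature. Bars are standard errors and filled symbols are called, which are *ELIP1* and *ELIP2* at 37 °C on the left and *SPA3* at 22 °C on the right.

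In *prr7prr9* at ZT6 heat raised *HY5* (LFC 2.03 ± 0.21, adjusted p = 0.00019), *ELIP1* (6.34 ± 0.51, adjusted p = 4.1e-05) and *ELIP2* (1.85 ± 0.37, adjusted p = 0.0074), 3 of 10 genes against 14.1% (6.66% higher). *ELIP1* went from 0.20 and 1.00 at 22 °C to 6.55 and 7.32 at 37 °C. *ELIP2* went from −0.33 and 0.19, which are 11 and 25 reads, to 1.60 and 1.97, and its LFC was 0.56 (adjusted p = 0.19) with values raised to 1.23 and 1.59 (adjusted p = 0.054) without *prr7prr9* replicate 2 at 22 °C.

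Cold raised 7 of the 10 in *prr7prr9*, against 3.6% (2.19% higher and 1.42% lower, or 3.52% higher after centring): *HY5* (LFC 1.75 ± 0.21), *HYH* (3.01 ± 0.39), *SPA4* (1.34 ± 0.20), *RUP1* (1.67 ± 0.39), *RUP2* (2.08 ± 0.36), *ELIP1* (4.80 ± 0.51) and *ELIP2* (4.35 ± 0.37), with adjusted p between 0.00045 and 0.040. With values raised to 1.23, *ELIP1* had 4.17 (adjusted p = 0.00016) and *ELIP2* 3.05 (adjusted p = 0.00017). *ELIP2* was 3.77 and 4.80 at 10 °C in the mutant and 2.81 and 2.85 in WT. The calls of *RUP1* and *RUP2* ended when any 1 of the 4 libraries was left out (adjusted p = 0.12 to 0.25 and 0.054 to 0.11), and that of *SPA4* without *prr7prr9* replicate 2 at 10 °C (LFC 1.13, adjusted p = 0.066). Without that library 4 of the 10 were called. Without the 4 libraries with over 27000 genes 0 of these 7 and 0 of the 3 heat calls remained.

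Directly between the genotypes *SPA3* was called at 22 °C, with 5.67 and 5.43 in *prr7prr9* against 3.43 and 3.43 in WT (LFC 2.12 ± 0.27, adjusted p = 0.010), 1 of 10 genes against 0.286% (0.215% higher). Its call ended when any of the 4 libraries was left out (adjusted p = 0.058 to 0.13). *HYH* was 2.47 and 3.16 against 0.25 and 1.24, a separation of 2.07 ± 0.39 with an adjusted p of 0.095. At 22 °C 6 of the 10 had an unadjusted limma p under 0.05 (6.8% of all genes). Besides *SPA3* and *HYH* these were *SPA1* (LFC 1.03 ± 0.23), *SPA4* (1.02 ± 0.20), *RUP2* (1.35 ± 0.36) and *ELIP2* (−1.23 ± 0.37), none of them past the adjusted test. At 37 °C limma called 0 of 10, against 0.145%, and at 10 °C 0 of 10, against 0.141% (0.0674% higher and 0.0739% lower), with 5 genes at an unadjusted p under 0.05 each time (5.68% of all genes at 37 °C and 9.89% at 10 °C). At 10 °C these were *HY5*, *HYH*, *RUP1*, *ELIP1* and *ELIP2*, with LFCs of 0.89 to 1.91 that were not past the adjusted test.

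The interaction of *prr7prr9* with temperature was called for 0 of 10 genes under heat (against 0.00321%, with 2 at an unadjusted p under 0.05 beside 3.48% of all genes) and 0 of 10 under cold (against 0.0835%, with 6 beside 7.17%). The largest cold values were 2.68 ± 0.53 for *ELIP2* (adjusted p = 0.19), 1.98 ± 0.72 for *ELIP1* (adjusted p = 0.58) and −1.64 ± 0.38 for *SPA3* (adjusted p = 0.28). With values raised to 1.23 the *ELIP2* value was 1.5 ± 0.42 (adjusted p = 0.21). With 2 libraries a group, differences of this size were not past the test, which does not show that the genotypes respond alike.

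Ordered by mean level at ZT1, *ELIP1* was highest in WT at 37 °C (mean 8.60), then *cca1lhy* at 37 °C (7.45), with no overlap between these or with the next group, WT at 10 °C (6.15), and the remaining 3 neighbours overlapped. *HY5*, *HYH*, *SPA1*, *SPA3*, *SPA4*, *RUP1*, *RUP2* and *ELIP2* were highest in WT at 10 °C, where each overlapped the group next in order. *RUP1*, *RUP2* and *HYH* were lowest in *cca1lhy* at 37 °C (means 2.88, 3.69 and 4.59) after WT at 37 °C, which overlapped it, and both stood below the other 4 groups. *COP1* was highest in WT at 22 °C (5.28). At ZT6 *HYH* ran from *prr7prr9* at 10 °C (5.82) down through WT at 10 °C (4.51), *prr7prr9* at 37 °C (3.81), *prr7prr9* at 22 °C (2.81), WT at 37 °C (2.27) and WT at 22 °C (0.75), with no neighbours overlapping.

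Other genes of the pathway were counted in lists that exclude the 10. In WT, heat calls among all genes were 6.97% higher and 6.3% lower at ZT1 and 7.25% and 7.16% at ZT6, and cold calls 1.03% and 0.84%, then 3.94% and 2%. Of 17 genes of the ligase and the COP9 signalosome, heat raised 1 at ZT1 and 3 at ZT6 in WT and lowered none, and cold called none at either time. *CSN7*, a signalosome subunit, rose in heat at both times (LFC 1.90 ± 0.22 and 2.47 ± 0.15), *CUL4*, the cullin of the ligase, at ZT6 (1.30 ± 0.17), and *CSN5B* at ZT6 (1.09 ± 0.27). The medians of the list were 0.07 and 0.24 for heat and −0.02 and −0.27 for cold at ZT1 and ZT6. Among UVR8 and 7 B-box genes, cold raised 2 of 7 tested at ZT1 and 4 of 8 at ZT6, and heat 1 and 2. *BBX25* rose in cold at both times (2.49 ± 0.18 and 2.70 ± 0.15), as did *BBX28* (1.75 ± 0.21 and 2.25 ± 0.14). *BBX22*, an HY5 partner, rose in heat at ZT1 (2.79 ± 0.13) and ZT6 (1.55 ± 0.19), and *BBX24* rose in cold at ZT6 (1.24 ± 0.18). The medians were −0.09 and 0.45 for heat and 0.63 and 0.93 for cold.

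Of 11 HY5 target genes, largely of flavonoid synthesis and DNA photorepair, heat lowered 4 and raised 1 at ZT1, and lowered 1 and raised 3 at ZT6. Cold lowered 3 and raised 1 at ZT1, and raised 7 and lowered none at ZT6. *F3H*, a flavonoid enzyme gene, fell by 2.30 ± 0.16 on the log2 scale in heat at ZT1 and rose in cold at ZT6 (LFC 2.07 ± 0.25), and *SIG5*, a plastid sigma factor gene, rose in cold at ZT6 (3.88 ± 0.16). *MYB111*, a flavonol regulator, rose in cold at ZT1 (2.76 ± 0.46) and in heat at both times (1.58 ± 0.42 and 2.64 ± 0.48), and *MYB12* in heat and cold at ZT6 (2.28 ± 0.55 and 2.07 ± 0.55). The medians were −0.79 and 0.29 for heat and −0.28 and 1.30 for cold. The cold difference between the times was called higher at ZT6 for 8 of the 11 and lower for 1, against 5.77% and 5.13% of all genes, with a median of 2.38 beside −0.04 over all genes.

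Of the COP1/SPA substrates *HFR1*, a bHLH factor of shade signalling, rose in heat at both times (1.17 ± 0.34 and 1.13 ± 0.33) and *PAP1*, an anthocyanin regulator, in cold at ZT6 (2.32 ± 0.61), 1 of 4 tested at ZT1 in heat and 1 of 5 at ZT6 in each treatment. The medians were 0.26 and 0.80 for heat and 0.19 and 0.65 for cold. Among 7 relatives of the ELIPs 1 was called at ZT1, *PSBS*, which carries photoprotective quenching and fell by 1.10 ± 0.14 on the log2 scale in heat. At ZT6 1 was called, *SEP2*, which rose in cold (1.33 ± 0.31). The medians of this list were −0.33 and −0.47 for heat and −0.32 and 0.15 for cold.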

How the data were processed

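The study made single-end RNA-seq libraries of 75 bases from whole seedlings. The authors trimmed reads with cutadapt, aligned them with TopHat2 (2.0.14) to the TAIR10 genome, with Bowtie2 (version 2.2.5) beneath it, and counted them on Araport11 genes. The authors added 5 to every count, scaled with edgeR and applied voom with quantile normalization, separately for ZT1 (23 libraries) and ZT6 (12 libraries), and deposited the resulting log2 CPM. The deposited columns of the authors' own fold changes and p-values were not used.

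The 12 groups were compared in limma 3.58.1 (R 4.3.3) with 1 trended fit per time and p-values adjusted by Benjamini-Hochberg over all genes with 3 (ZT1) or 2 (ZT6) libraries or more above the table's lowest value. Calls needed an adjusted p under 0.05 and, except for interactions and differences between times, an absolute LFC over 1. A difference between times was the ZT6 LFC minus the ZT1 LFC, with its error from both fits and Satterthwaite degrees of freedom. Permutation tests and tables used Python 3.11.15 and scipy 1.17.1. The ZT6 columns carry replicate numbers of their own and were mapped to groups only. Reads were worked back from the spacing of low values, and on simulated tables the largest error of a library total was 1.71%.

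The 10 members, the pathway lists and the tests were chosen with earlier results of these data known. From each list up to 4 called genes with the largest absolute LFC in the WT temperature comparisons are named, and for each member the genes with r over 0.9 at both times among its 3 nearest. Replicate numbers counted as pairs for WT at 10 °C and 22 °C at ZT1, where deviations of same-numbered libraries correlated at 0.177, 0.101 and 0.242, and the block changed no call there. Elsewhere numbers did not count as pairs, though some correlations were of like size. For WT in heat at ZT1 they were 0.031, 0.292, 0.018 and 0.079. For *prr7prr9* against WT they were −0.398 at 37 °C and 0.298 at 10 °C. On simulated data for WT heat the fit found 96% of changes of 1.5 (log2) at ZT1 among 25727 genes and 64% at ZT6 among 31135. For the interactions with heat it found 74% of such changes at ZT1 and 38% at ZT6. Alternatives were no trend, no filter, centring on reference genes, only the groups compared, a replicate block, ZT6 values raised to the lowest value of ZT1, each library left out in turn and, chosen after seeing the data, 4 ZT6 libraries left out.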

Additional observations from a re-analysis of the deposited data

Results flagged for a closer look

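*RUP2* in *cca1lhy* at 22 °C and ZT1 had 1 library far from the others, replicate 3 at 6.03 log2 CPM beside 6.47 to 6.51. This was 1 of 50 groups of 4 libraries examined, and chance alone flags about 2.5 of them.

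The temperature response of WT differed between ZT1 and ZT6 for several of the genes. Under heat the LFC at ZT6 exceeded that at ZT1 by 1.08 for *HY5*, 2.77 for *HYH*, 1.03 for *COP1*, 1.21 for *SPA1*, 2.77 for *SPA3*, 1.44 for *SPA4*, 2.39 for *RUP2* and 3.56 for *ELIP1*. Under cold it exceeded it by 3.24 for *HYH*, 1.51 for *COP1*, 1.39 for *SPA1*, 2.22 for *SPA3*, 1.51 for *SPA4*, 2.57 for *RUP2* and 2.81 for *ELIP1*.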

How the results depend on the processing

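No called value of a member changed direction under any alternative run. Some uncalled values did. For example, the *prr7prr9* heat interactions of *RUP1* and *ELIP2* changed sign with ZT6 values raised to the lowest value of ZT1. They went from 0.50 and 1.09 to −0.07 and −0.09. Counts of called members were within 1.5 times the reported ones except as follows, and the causes were not tested unless named. For *cca1lhy* in cold, 1 gene was called with no trend and 1 with no filter. For *prr7prr9* against WT at 22 °C the count was 0 with no filter, 3 after centring on reference genes and 2 with the replicate block. For *prr7prr9* against WT at 10 °C it was 3 with ZT6 values raised to the lowest value of ZT1. Leaving out the 4 ZT6 libraries with over 27000 genes, which leaves 8 libraries for 6 groups, gave 0 called for WT in heat and in cold, 0 for *prr7prr9* in heat and in cold, 0 for *prr7prr9* against WT at 22 °C and 2 for the difference between times under heat. Fitting only the groups compared ended the calls of *COP1* and *ELIP1* for WT in cold at ZT6 and of *HY5* and *COP1* for the difference under heat. With no filter the calls of *ELIP2* (WT in cold at ZT1), *HYH* (WT in heat at ZT6), *RUP1* (*prr7prr9* in cold) and *SPA1* (difference under heat) also ended.

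With 1 library left out at a time, the counts ranged at ZT1 from 5 to 5 for WT in heat, 1 to 3 for WT in cold, 5 to 5 and 0 to 2 for *cca1lhy* in heat and cold, 0 to 0, 1 to 2 and 0 to 1 for *cca1lhy* against WT at 22, 37 and 10 °C, and 0 to 0 for both interactions. At ZT6 they ranged from 3 to 5 and 5 to 8 for WT in heat and cold, 2 to 3 and 4 to 5 for *prr7prr9*, 0 to 0 for *prr7prr9* against WT at each temperature, and 0 to 0 and 0 to 1 for the interactions with heat and cold. For the differences between times they were 6 to 8 under heat and 6 to 7 under cold. Where a removal leaves 1 library in a group, it is assumed to vary like the other groups. Of the called values 12 of 17 at ZT1, 14 of 23 at ZT6 and 12 of 15 between times kept their call under every single removal.

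The replicate block, where numbers were shared but did not count as pairs, called *HYH* in addition for *prr7prr9* in heat and for *prr7prr9* against WT at 22 °C and ended the call of *RUP1* for *prr7prr9* in cold (LFC 1.72). It changed no other call of a member. For *prr7prr9* against WT at 37 °C same-numbered libraries deviated in opposite directions (r = −0.398), and the crossed pairing, added after seeing the data, called 0 of the 10.

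At ZT6 some levels rest on as few as 8 reads in a library, and at ZT1 in heat *RUP1* rests on 3 to 9 reads, which limits the precision of those LFCs. The 5 reads added to every count can also make LFCs at such low reads too small in size, and by how much was not tested.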
